A study of Mus musculus with 6 samples.

Results

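PRO-seq, which maps the RNA polymerases engaged on a gene by sequencing the nascent RNA that they extend in isolated nuclei, was examined for 10 p53 targets of cell death in muscle stem cells (MuSCs): *Bax*, *Bbc3*, *Pmaip1*, *Fas*, *Tnfrsf10b*, *Eda2r*, *Aen*, *Perp*, *Zmat3* and *Ei24*. The genes were chosen by name, for their place in the p53 pathway, and 9 of the 10 were found by symbol among the 14546 protein-coding genes of the deposited table. *Perp* was not analysed here. Ctrl samples carried Pax7CreERT with wild type Suv4-20h1 (Pax7CreERT/Suv4-20h1WT), and *Kmt5b* sKO samples carried Pax7CreERT with Suv4-20h1 inactivated (Pax7CreERT/Suv4-20h1KO); Suv4-20h1 is another name of *Kmt5b*, which encodes a histone methyltransferase of H4K20. There were 3 libraries per group, all from proliferating cultured MuSCs of adult mice. The Cre recombinase in both genotypes is tamoxifen-inducible and driven by *Pax7*, so that deletion of the floxed *Kmt5b* alleles is limited to cells that expressed *Pax7*; tamoxifen was given to mice of both groups. The sources used here do not say which animals or how many were behind each library, so p-values measure the spread between these libraries only.

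For each gene the table gives a value for the TSS region, the first 400 nt of the transcript, and a value for the gene body. The TSS value is called RPM here, a read number times a constant of the library. The gene body, from there to the transcript end, has a value in TPM, which is scaled to length as well. The ratio of both values is the pausing index, which is high when polymerases gather close to the start relative to the gene body. Fold changes are of *Kmt5b* sKO over Ctrl and were estimated with limma on log2(value + 0.5), where low levels make a fold change appear smaller than it is. A gene was called, and is said to have risen or fallen, where its p, adjusted by Benjamini-Hochberg over all genes tested, was under 0.1.

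p53 is a transcription factor that is stabilised after DNA damage or replication stress and binds DNA as a tetramer at a pair of half-sites. Part of its targets stop the cell cycle or feed back on p53 itself, and another part favours cell death, either at the mitochondria or through receptors at the cell surface. *Bax* encodes a BCL2 family protein that forms pores in the outer mitochondrial membrane, and *Bbc3* (PUMA) and *Pmaip1* (NOXA) encode BH3-only proteins that neutralise anti-apoptotic BCL2 proteins. *Fas* and *Tnfrsf10b* encode death receptors, the latter for the ligand TRAIL, and *Eda2r* encodes a receptor of the TNF receptor family for ectodysplasin A2. *Aen* encodes an apoptosis enhancing nuclease, *Zmat3* a zinc finger protein that binds RNA, and *Ei24* a membrane protein of the endoplasmic reticulum.

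The start regions of the genes were read from the promoter windows of RefSeq (GRCm38.p6), which run from 250 bases before to 50 bases after each start, and 6 of the 9 genes matched; *Pmaip1*, *Tnfrsf10b* and *Zmat3* were not among them. A p53 site of 2 half-sites, allowed at most 3 mismatches and a spacer of at most 2 bases, was found in 3 of the 6 windows, against 4.29% of all 32851 windows. A p53 half-site without mismatch was also found in 3 of the 6, against 8.36% of all windows, and in *Bax* and *Aen* it lies inside the longer site. The stretches below show these p53 matches, as the motif that the choice of genes turns on, and a TATA box match in *Eda2r*. Matches are in capitals, and each stretch is written 5′ to 3′ on the strand of the gene.
*Bax*, p53 site with 2 mismatches and a spacer of 1 base at positions -201 to -181 from the start, chr7:45467049-45467129, minus strand: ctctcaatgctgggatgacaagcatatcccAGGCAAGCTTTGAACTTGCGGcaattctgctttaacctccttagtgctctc
*Bbc3*, p53 site with 3 mismatches at positions -97 to -78, chr7:16309456-16309535, plus strand: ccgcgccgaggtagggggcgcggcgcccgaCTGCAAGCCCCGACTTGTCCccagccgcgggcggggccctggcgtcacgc
*Aen*, p53 site with 3 mismatches at positions 11 to 30 after the start, chr7:78895937-78895956, plus strand: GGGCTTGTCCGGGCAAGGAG
*Ei24*, half-site without mismatch at positions -10 to -1, chr9:36797335-36797374, minus strand: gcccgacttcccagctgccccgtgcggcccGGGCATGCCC
*Eda2r*, TATAAA at positions -58 to -53, chrX:97377232-97377297, minus strand: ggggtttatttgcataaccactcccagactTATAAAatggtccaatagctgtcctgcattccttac

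TATAAA, the core of a TATA box, was present on either strand in 1 of the 6 windows, that of *Eda2r*, and in 13.6% of all windows. GGGCGG, the core of a GC box, was present on either strand in 5 of the 6 windows, *Aen* being the exception, and in 35.7% of all windows. The window of *Fas* held neither form of the p53 motif. Positions count from the RefSeq start, which lies 33 nt before the start listed in the table for *Bbc3*, 7 nt after it for *Eda2r* and 59 nt after it for *Ei24*, so that the *Ei24* half-site lies inside the TSS region in which reads were counted, as does the *Aen* site. A match of letters describes the window and does not show that a protein binds there, and sites outside these 300 bases were not searched.

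**Figure D1:**
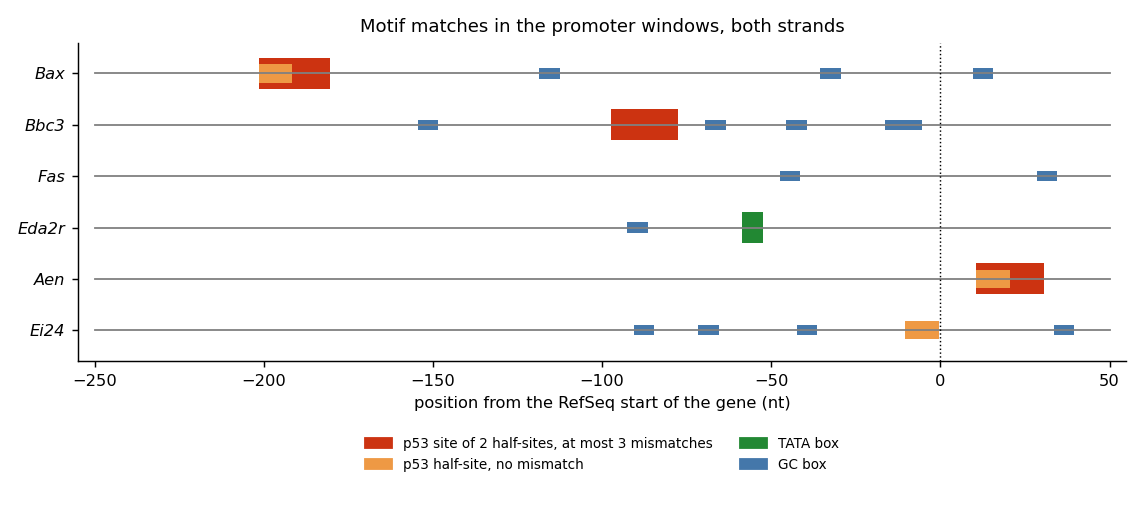
Motif matches in the promoter windows of 6 p53 targets, by position in nt from the RefSeq start (dotted line), with both strands searched. The p53 sites of *Bax* and *Bbc3* lie before the start at -201 to -181 and -97 to -78, that of *Aen* lies after it at 11 to 30, and the *Ei24* half-site ends at -1; 2 GC boxes of *Bbc3* share a base and appear as 1 block.

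The libraries held between 926904 and 3246052 reads in TSS regions and between 7425424 and 16249199 in gene bodies, as recovered from the deposited values. Between libraries of a group, log2 gene body values correlated at 0.945 to 0.972 across genes, and between groups at 0.923 to 0.956. *Kmt5b* itself, the targeted gene, had gene body values of 30.6, 35.4 and 38.5 TPM in Ctrl against 37.8, 35.0 and 42.6 TPM in *Kmt5b* sKO. In the TSS region it gave 87.3 to 101.5 RPM in Ctrl and 107.0 to 120.0 RPM in *Kmt5b* sKO. Its nascent signal was therefore not lower in *Kmt5b* sKO and does not check the genotype labels, since values over a whole gene do not isolate a deleted exon. Markers of MuSCs and myoblasts were all present, with *Myod1* at 855 to 1328 TPM and *Pax7* at 25.50 to 53.7 TPM over the 6 libraries. The summed signal of 4 Y-linked genes was 0.62, 0.20 and 24.1 TPM in Ctrl 1, 2 and 3 and 40.3, 42.4 and 2.28 TPM in *Kmt5b* sKO 1, 2 and 3. Libraries within each group thus differed in Y-linked transcription, and the groups were not balanced for it. All 4 genes had a gene body log2 fold change above 0, with a median of 1.83, and 0 were called.

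All 9 genes had a fitted log2 fold change above 0 in both regions, against 58.2% (TSS region) and 53.8% (gene body) of all genes tested. The sign was not settled for *Fas* in either region. Nor was it for *Bbc3* in the gene body, where the plain means were 44.58 TPM in Ctrl and 44.4 TPM in *Kmt5b* sKO. Only *Eda2r* passed the test, and only in the gene body. In the gene body, *Eda2r* was called higher, which makes 1 of 9, where 2.99% of 12451 autosomal genes were called (1.61% higher), or 2.95% of 12877 genes with chromosomes X and Y included. A limma unadjusted p under 0.05 was reached in the gene body by 6 of the 9 genes, against 1981 of 12451 autosomal genes. The median log2 fold change of the 9 genes was 0.47 in the gene body (range 0.08 to 1.17), against 0.02 over all genes tested. Every *Kmt5b* sKO library lay above every Ctrl library for 7 of the 9 genes in the gene body, *Bbc3* and *Fas* being the exceptions, against 12% of all genes tested. In the TSS region 0 of the 9 genes were called by limma, against 1.66% of 12451 autosomal genes (0.932% higher) or 1.63% of 12877 with X and Y. There 3 of the 9 genes had an unadjusted p under 0.05, against 1369 of 12451 autosomal genes. With edgeR and DESeq2 0 of the 9 were called as well, where 279 and 295 of 12451 genes were. The log2 fold changes of the 9 genes in the TSS region had a median of 0.52 (range 0.17 to 0.91), against 0.08 over all genes tested. For 4 of the 9 (*Bax*, *Bbc3*, *Tnfrsf10b* and *Eda2r*) all *Kmt5b* sKO libraries lay above all Ctrl libraries there, against 10.2% of all genes tested. The genes are not replicates of one another, since they were chosen as targets of 1 regulator and were measured in the same 6 libraries.

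**Figure D2:**
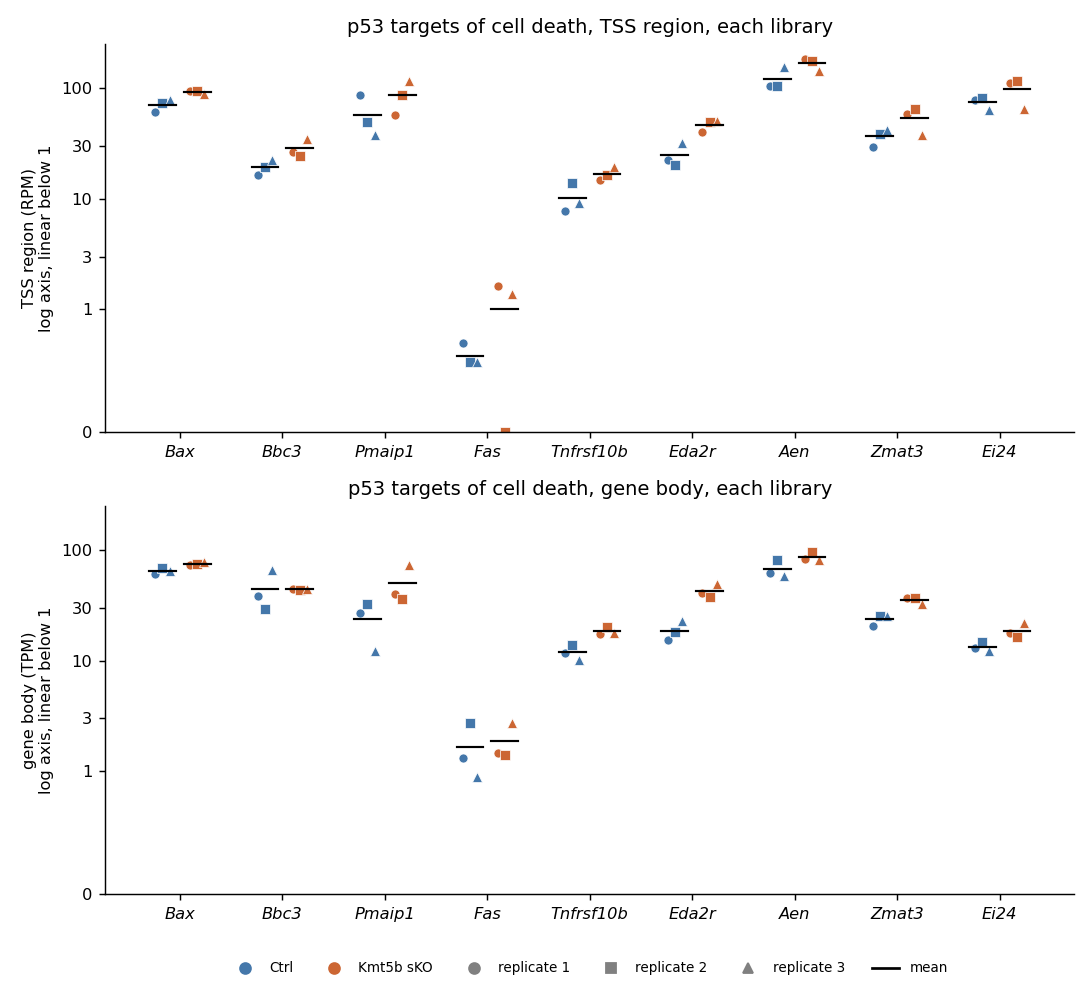
Level of each p53 target in every library, in RPM for the TSS region (top) and TPM for the gene body (bottom), on a log axis that is linear below 1. Points are libraries, coloured by group and shaped by replicate number, and bars are means of 3; in the gene body the *Kmt5b* sKO points lie above all Ctrl points for every gene but *Bbc3* and *Fas*.

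*Bax*, the pore-forming member, was among the most transcribed of these genes. Its TSS region gave 60.3, 73.5 and 77.5 RPM in Ctrl against 94.1, 93.8 and 89.2 RPM in *Kmt5b* sKO, and its gene body 60.4, 68.8 and 65.0 TPM in Ctrl against 73.6, 74.1 and 77.7 TPM in *Kmt5b* sKO. The groups did not overlap in either region, but the differences were small, 1.32-fold in the TSS region (95% interval 0.97 to 1.79, limma adjusted p = 0.53) and 1.16-fold in the gene body (0.96 to 1.4, adjusted p = 0.44), and neither passed the test. *Bax* (chr7:45461697-45466898, minus strand, 6 exons) shares 915 nt with the annotated gene Gm45808 on the same strand, and reads there cannot be assigned to one of them.

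*Bbc3*, which encodes PUMA, was not called in either region. The TSS region gave 16.5, 19.5 and 22.5 RPM in Ctrl against 26.6, 24.4 and 35.0 RPM in *Kmt5b* sKO, without overlap, a fold change of 1.45 (0.97 to 2.17, limma adjusted p = 0.51). The gene body gave 38.2, 29.3 and 66.3 TPM in Ctrl against 44.7, 43.8 and 44.7 TPM in *Kmt5b* sKO. The *Kmt5b* sKO libraries were thus nearly alike in the gene body and lay inside the range of Ctrl, with Ctrl 3 the highest of all 6, and the fold change was 1.06 (0.68 to 1.65, limma adjusted p = 0.93). The sign of this gene body difference turned without Ctrl 2, to a log2 fold change of -0.18, and with edgeR, to -0.05, so no direction can be given. *Bbc3* lies at chr7:16309616-16318205 on the plus strand and has 4 exons.

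*Pmaip1*, which encodes NOXA and lies on chromosome 18, had the least certain gene body difference of the 9 genes, with an SE of 0.40 on the log2 scale. Its gene body gave 27.0, 32.6 and 12.3 TPM in Ctrl against 40.3, 36.4 and 73.3 TPM in *Kmt5b* sKO. The groups did not overlap, and Ctrl 3 was the lowest and *Kmt5b* sKO 3 the highest library. The fold change was 2.12 (1.11 to 4.05) and did not pass the test (limma adjusted p = 0.25). Without Ctrl 3 the log2 fold change went from 1.09 to 0.67, and without *Kmt5b* sKO 3 to 0.78. With Y-linked transcription as a further term, chosen after seeing the data, it was 1.75 with a limma adjusted p of 0.011. *Pmaip1* would then be called in the TSS region as well, at 1.03 with an adjusted p of 0.041. This term raised the calls over all 12451 autosomal genes from 372 to 1299 in the gene body and from 207 to 577 in the TSS region. The TSS region gave 85.7, 48.8 and 37.5 RPM in Ctrl against 57.4, 85.8 and 115.5 RPM in *Kmt5b* sKO, and the groups overlapped there (1.53-fold, 1.0 to 2.34, limma adjusted p = 0.45).

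Of the 3 receptor genes 1 was called, in the gene body, where 2.95% of 12877 genes were called with X and Y included. Differences between the responses of the 3 genes were not tested. *Eda2r*, the receptor for ectodysplasin A2 on chromosome X (chrX:97333840-97377216, minus strand, 8 exons), rose in the gene body. It gave 15.3, 18.1 and 22.7 TPM in Ctrl against 40.7, 37.6 and 49.0 TPM in *Kmt5b* sKO, so that the lowest *Kmt5b* sKO library lay well above the highest Ctrl library. The fold change was 2.25 (1.68 to 3.02, log2 fold change 1.17 ± 0.18 SE), with a limma adjusted p of 0.063, rank 55 of 12877 genes by p. In the TSS region *Eda2r* gave 22.5, 20.1 and 31.6 RPM in Ctrl against 39.7, 48.9 and 50.1 RPM in *Kmt5b* sKO. These values did not overlap either, but at 1.88-fold (1.29 to 2.73) the adjusted p was 0.11, and *Eda2r* was not called there.

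The call on *Eda2r* in the gene body held without Ctrl 2 (adjusted p = 0.092) or Ctrl 3 (0.027) and was lost without any of the other 4 libraries. Without any 1 of those 4 libraries, 0 of 12451 autosomal genes were called in the gene body, so the loss was not particular to *Eda2r*. The adjusted p of *Eda2r* was then 0.20 without Ctrl 1, 0.19 without *Kmt5b* sKO 1, 0.16 without *Kmt5b* sKO 2 and 0.22 without *Kmt5b* sKO 3. Its log2 fold change stayed between 1.04 and 1.32 with any library left out. *Eda2r* is X-linked, and Y-linked signal differed between libraries and was not balanced between the groups. With that signal as a further term, chosen after seeing the data, the log2 fold change was 1.12 with a limma adjusted p of 0.042, and the part of the animals' sex in the difference was not tested.

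*Tnfrsf10b*, the TRAIL receptor gene (chr14:69767472-69784411, plus strand, 8 exons), gave 11.8, 14.0 and 10.2 TPM in the gene body of Ctrl and 17.4, 20.2 and 17.6 TPM in *Kmt5b* sKO. The groups did not overlap, and the fold change of 1.52 (1.18 to 1.97) had a limma adjusted p of 0.13. The recovered reads gave adjusted p-values of 0.087 with edgeR and 0.024 with DESeq2, so that the call on *Tnfrsf10b* depended on the tool. Its TSS region gave 7.75, 13.8 and 9.09 RPM in Ctrl against 14.8, 16.5 and 19.3 RPM in *Kmt5b* sKO, also without overlap (1.66-fold, 1.01 to 2.71, limma adjusted p = 0.43), from 24 to 48 reads per library.

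*Fas*, the gene of the CD95 death receptor (chr19:34290659-34327770, plus strand, 9 exons), was hardly transcribed. Its TSS region held 3, 1 and 3 reads in Ctrl and 5, 0 and 3 in *Kmt5b* sKO, which is too few for a fold change. Its gene body gave 1.32, 2.73 and 0.95 TPM in Ctrl against 1.47, 1.41 and 2.74 TPM in *Kmt5b* sKO, with overlap of the groups (1.13-fold, 0.63 to 2.02, limma adjusted p = 0.88). At this depth a change of *Fas* of up to 2.02-fold lies within the interval, and the sign turned without Ctrl 3 or without *Kmt5b* sKO 3, to -0.08 and -0.07 on the log2 scale. It also shares 159 nt with the small RNA gene Gm27818 on the same strand.

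*Zmat3*, the RNA-binding zinc finger gene (chr3:32334792-32365678, minus strand, 6 exons), gave 20.3, 25.1 and 25.1 TPM in the gene body of Ctrl and 36.5, 36.5 and 32.3 TPM in *Kmt5b* sKO. The groups were well apart, at 1.49-fold (1.19 to 1.86), and the limma adjusted p was 0.108, just short of the threshold. It was 0.080 with edgeR, 0.021 with DESeq2 and 0.077 with limma without Ctrl 3. The TSS region gave 29.5, 38.5 and 41.9 RPM in Ctrl against 58.4, 64.7 and 37.7 RPM in *Kmt5b* sKO, where *Kmt5b* sKO 3 lay inside the range of Ctrl (1.44-fold, 0.99 to 2.08, adjusted p = 0.48).

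*Aen*, the nuclease gene (chr7:78895927-78911209, plus strand, 4 exons), gave 62.0, 80.8 and 58.5 TPM in the gene body of Ctrl and 83.4, 96.2 and 81.2 TPM in *Kmt5b* sKO. The highest Ctrl and the lowest *Kmt5b* sKO library nearly touched, and the fold change was 1.3 (1.01 to 1.69, limma adjusted p = 0.31). The TSS region gave 104.1, 103.4 and 155.7 RPM in Ctrl against 182.9, 177.0 and 141.2 RPM in *Kmt5b* sKO, which overlapped through Ctrl 3 and *Kmt5b* sKO 3 (1.4-fold, 1.01 to 1.93, adjusted p = 0.43).

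*Ei24*, the endoplasmic reticulum gene (chr9:36779159-36797393, minus strand, 11 exons), gave 13.1, 14.7 and 12.1 TPM in the gene body of Ctrl and 17.7, 16.4 and 21.9 TPM in *Kmt5b* sKO, without overlap (1.38-fold, 1.07 to 1.79, limma adjusted p = 0.21). Its TSS region gave 78.7, 81.0 and 63.1 RPM in Ctrl against 111.4, 116.9 and 64.4 RPM in *Kmt5b* sKO. *Kmt5b* sKO 3 again lay inside the range of Ctrl, and the difference was 1.28-fold (0.90 to 1.82, adjusted p = 0.68). An antisense gene, Gm26787, covers 3519 nt of *Ei24*, and the study's methods state that only reads on the correct strand were counted.

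**Figure D3:**
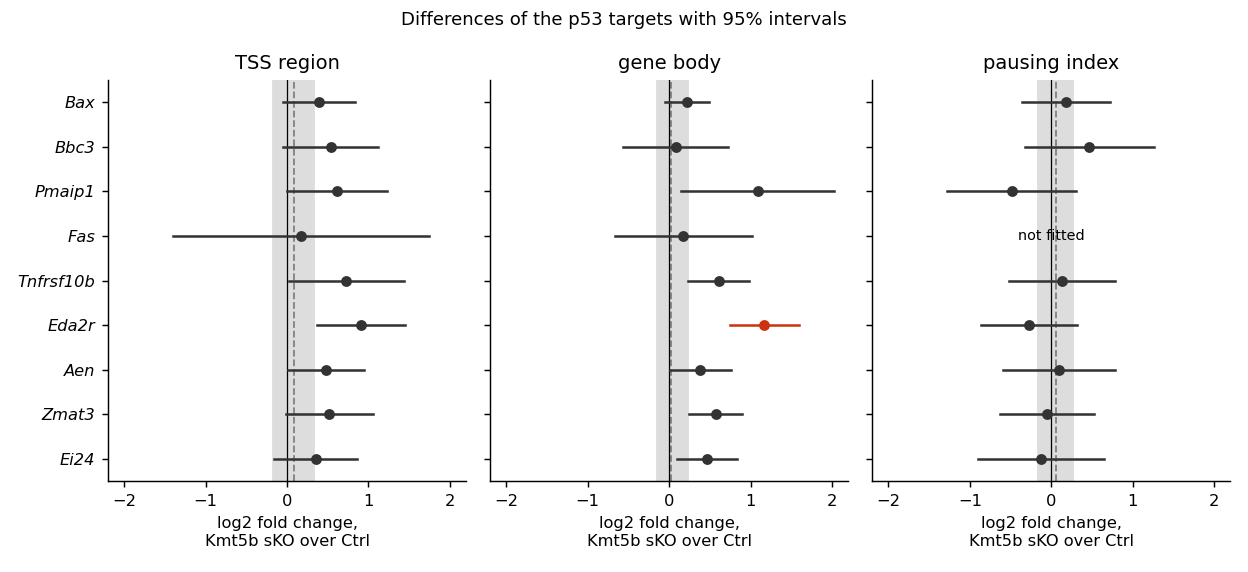
Log2 fold change of each p53 target, *Kmt5b* sKO over Ctrl, with 95% intervals (bars) in the TSS region, the gene body and the pausing index. The grey band and the dashed line mark the quartiles and median of all genes tested, and red marks an adjusted p under 0.1, which *Eda2r* alone reached, in the gene body; all 9 points lie above 0 in both regions and on either side of 0 for the pausing index.

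The pausing index showed no shared direction. It could be fitted for 8 of the 9 genes, as *Fas* had a TSS value of 0 in *Kmt5b* sKO 2, and 4 were higher and 4 lower in *Kmt5b* sKO, with a median log2 fold change of 0.02 against 0.05 over all genes tested. Of the 8, 0 were called by limma and 0 had an unadjusted p under 0.05, where 0% of 11698 genes were called and 452 had an unadjusted p under 0.05. The groups overlapped for all 9 genes, where 5.93% of genes tested had every *Kmt5b* sKO library above every Ctrl library. *Ei24* had the highest index, 6.02, 5.52 and 5.20 in Ctrl against 6.29, 7.15 and 2.94 in *Kmt5b* sKO. *Bbc3* had an index of 0.43, 0.67 and 0.34 in Ctrl against 0.59, 0.56 and 0.78 in *Kmt5b* sKO, the largest fitted rise at 0.47 on the log2 scale (95% interval -0.32 to 1.26). *Pmaip1* had an index of 3.18, 1.5 and 3.05 in Ctrl against 1.42, 2.36 and 1.57 in *Kmt5b* sKO, the largest fitted decrease, at -0.49 (-1.28 to 0.31). *Eda2r*, with its higher gene body, had an index of 1.48, 1.11 and 1.39 in Ctrl against 0.98, 1.3 and 1.02 in *Kmt5b* sKO, at -0.27 (-0.86 to 0.32). The intervals of all 8 genes include 0 on the log2 scale. Their lowest limit was 0.41-fold (*Pmaip1*) and their highest 2.39-fold (*Bbc3*), while others were narrower, such as 0.65 to 1.43-fold for *Zmat3*. With 3 libraries a group, a change of pausing inside a gene's own interval is not excluded.

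**Figure D4:**
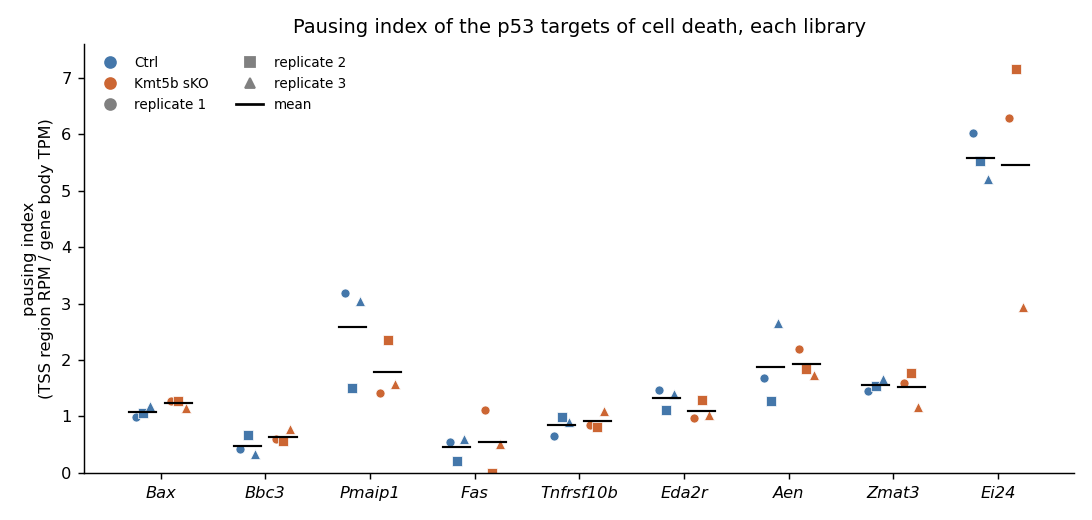
Pausing index of each p53 target, the TSS region value in RPM over the gene body value in TPM, in every library on a linear axis; points are libraries and bars are means of 3. *Ei24* stood above the other genes, at 5.20 to 6.02 in Ctrl, and the groups overlapped for every gene.

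By level, only *Fas* stood apart from all the others among the gene body signals of the 9 genes in Ctrl. *Aen* (67.1 ± 11.98 TPM, SD, n = 3) and *Bax* (64.7 ± 4.22 TPM) were the highest, above 93.5% and 93.2% of the 14546 genes listed, and *Bbc3* (44.6 ± 19.3 TPM), *Pmaip1* (24.0 ± 10.5 TPM), *Zmat3* (23.5 ± 2.75 TPM) and *Eda2r* (18.7 ± 3.75 TPM) followed. Each of these 6 genes overlapped with its neighbour in the order, so that their ranks are not settled. *Ei24* (13.3 ± 1.29 TPM) lay below every Ctrl value of *Eda2r* and overlapped with *Tnfrsf10b* (11.98 ± 1.92 TPM). Both also overlapped with *Pmaip1*, which ranged from 12.29 to 32.61 TPM in Ctrl, so they were not a separate step. *Fas* (1.67 ± 0.94 TPM) lay above only 14.9% of genes. In the TSS region, where all windows have the same length, *Aen* (121.1 ± 29.998 RPM) again stood first and *Fas* (0.62 ± 0.09 RPM) last. There *Ei24* (74.3 ± 9.75 RPM) stood beside *Bax* (70.4 ± 9.01 RPM) near the top. *Bbc3* (19.5 ± 3.04 RPM) lay below *Zmat3* and overlapped with *Eda2r*, so that the order of *Bbc3* and *Eda2r* is not settled.

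Single libraries did not carry the difference for all genes alike. In the gene body, Ctrl 3 was the lowest library for 5 of the 9 genes, Ctrl 1 for 3 and Ctrl 2 for 1, and *Kmt5b* sKO 3 was the highest for 5 and *Kmt5b* sKO 2 for 3. The remaining gene was *Bbc3*, with its highest value in Ctrl 3. In the TSS region Ctrl 1 was the lowest for 4 of the 9, and *Kmt5b* sKO 3 the highest for 4. Markers of mature muscle fibres, which mark differentiating cells in such cultures, moved in the same direction as the p53 targets: their summed gene body signal was 490 to 1065 TPM in Ctrl, with the lowest value in Ctrl 3, and 1250 to 1752 TPM in *Kmt5b* sKO, with the highest value in *Kmt5b* sKO 3. The 4 of 7 fibre markers that were tested all had a log2 fold change above 0, and 0 were called. Summed markers of differentiating myocytes overlapped, at 1393 to 2398 TPM in Ctrl and 2259 to 3081 TPM in *Kmt5b* sKO, as did those of MuSCs and myoblasts, at 1532 to 2279 and 2023 to 2729 TPM. The part of differentiation in the differences of the p53 targets was not tested.

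Other cell types left little signal. Endothelial *Pecam1* was at 1.42 to 3.04 TPM and *Cdh5* at 0.23 to 1.01 TPM, immune *Itgam* at 0.31 to 0.65 TPM, and fibro-adipogenic *Pdgfra* at 0.49 to 1.06 TPM over the 6 libraries. *Cd68*, listed as an immune marker, was at 214 to 402 TPM with overlapping groups. Summed Schwann cell markers were 8.75 to 9.90 TPM in Ctrl and 14.8 to 23.0 TPM in *Kmt5b* sKO, with *Sox10* called higher, and summed pericyte markers, nearly all of it *Cspg4*, were 22.4 to 40.6 and 44.0 to 52.2 TPM. The part of these markers in the differences of the p53 targets was not tested either.

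The rest of the p53 pathway gave the following picture in the gene body. Of 4 genes for p53 and its regulators, 2 rose and 0 fell, where 1.61% of all genes tested were called higher. *Mdm2*, the ubiquitin ligase that degrades p53 and is itself a p53 target, gave 96.8, 114.2 and 140.3 TPM in Ctrl against 221.3, 238.9 and 210.0 TPM in *Kmt5b* sKO, a log2 fold change of 0.94 ± 0.17 (SE, limma adjusted p = 0.068). *Trp63*, a relative of p53 that binds similar sites, rose from a low level of 0.27, 0.88 and 0.82 TPM to 1.98, 3.84 and 7.6 TPM (1.99 ± 0.45, adjusted p = 0.098), and it was also called in the TSS region, where Ctrl held 0, 1 and 1 reads and *Kmt5b* sKO 11, 11 and 32. *Trp53*, the gene of p53, gave 68.1, 63.7 and 69.1 TPM in Ctrl against 51.9, 63.6 and 53.6 TPM in *Kmt5b* sKO, with every *Kmt5b* sKO library below Ctrl, at a log2 fold change of -0.25 ± 0.13 that did not pass the test (adjusted p = 0.41).

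Among 12 p53 targets of cell cycle arrest and feedback, 3 rose and 0 fell in the gene body, against 1.61% of all genes tested called higher. Their median log2 fold change was 0.57 against 0.02 over all genes tested, and 7 of the 12 had every *Kmt5b* sKO library above every Ctrl library, against 12% of all genes tested. Besides *Mdm2*, which stands in both lists, these were *Ccng1*, a cyclin G gene, at 39.8, 51.9 and 45.0 TPM in Ctrl against 96.3, 72.3 and 73.2 TPM in *Kmt5b* sKO (log2 fold change 0.81, adjusted p = 0.080), and *Trp53inp1*, a nuclear protein gene that promotes p53 activity, at 12.3, 24.5 and 18.0 TPM in Ctrl against 45.9, 36.5 and 47.4 TPM in *Kmt5b* sKO (1.27, adjusted p = 0.075). *Ccng1* was also called in the TSS region (0.90, adjusted p = 0.070). The median of this list lies close to that of the 9 targets of cell death, 0.47, and the difference between the lists was not tested.

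A further 9 p53 targets linked to death, among them *Apaf1*, *Bid* and *Casp6*, had a median log2 fold change of 0.11 in the gene body, and 0 passed the limma test, with 2 at an unadjusted p under 0.05. Over all genes tested, 2.99% passed and 1981 of 12451 had an unadjusted p under 0.05. The largest difference was that of *Dapk1*, a death-associated kinase gene, at 2.70 ± 1.02 TPM in Ctrl and 4.87 ± 0.94 TPM in *Kmt5b* sKO (SD, n = 3; log2 fold change 0.79, limma adjusted p = 0.23).

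Of 5 anti-apoptotic BCL2 genes 2 rose in the gene body and 0 fell, where 1.61% of all genes tested were called higher; the difference from the other lists was not tested. *Bcl2l1*, the gene of BCL-XL, which holds BAX and the BH3-only proteins in check, gave 34.9, 37.1 and 48.7 TPM in Ctrl against 61.2, 78.7 and 76.2 TPM in *Kmt5b* sKO (log2 fold change 0.84 ± 0.17 SE, limma adjusted p = 0.080). *Bcl2l10* gave 2.16, 3.03 and 2.22 TPM in Ctrl against 7.25, 5.27 and 6.64 TPM in *Kmt5b* sKO (1.21, adjusted p = 0.065), from only 11 to 28 reads per library. Neither was called in the TSS region. Of 7 other pro-apoptotic BCL2 genes 0 were called in the gene body and 0 had an unadjusted p under 0.05. Over all genes tested, 2.99% were called and 1981 of 12451 had an unadjusted p under 0.05. The median log2 fold change of these 7 genes was 0.04, and the largest was that of *Bmf*, a BH3-only gene, at 0.37 (limma adjusted p = 0.57).

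Downstream of the mitochondria and the receptors 1 gene was called, in the TSS region, where 1.66% of all genes tested were called. Of 12 genes of the apoptosome, the caspases and their inhibitors 0 were called in the gene body, with 2 at an unadjusted p under 0.05 and a median log2 fold change of -0.003. In the gene body 2.99% of all genes tested were called, and 1981 of 12451 had an unadjusted p under 0.05. *Birc5*, which encodes survivin, an inhibitor of apoptosis protein that also serves in mitosis, fell in the TSS region, from 86.9, 55.7 and 45.8 RPM in Ctrl to 26.9, 27.7 and 30.4 RPM in *Kmt5b* sKO (log2 fold change -1.09, limma adjusted p = 0.063), and had a gene body difference of -1.05 with an adjusted p of 0.107. Of 7 genes of the death receptor pathway 0 were called in the gene body, with 1 at an unadjusted p under 0.05 and a median of -0.13, and the largest difference was that of *Tnf*, at 0.33 (adjusted p = 0.76). No gene of any of these lists was called by limma for the pausing index.

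**Figure D5:**
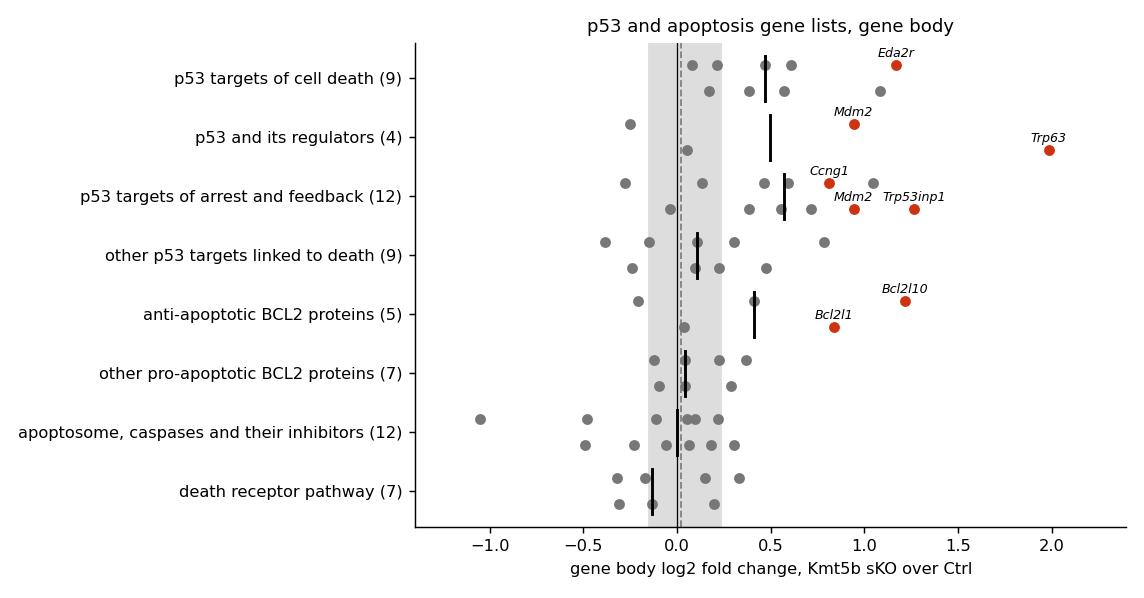
Gene body log2 fold change, *Kmt5b* sKO over Ctrl, of each tested gene (points, with the number per list in parentheses) in the p53 targets of cell death and in 7 related lists. Black bars are list medians, the grey band and dashed line the quartiles and median of all genes tested, and red named points have an adjusted p under 0.1; medians of the first 3 lists lie at 0.47, 0.50 and 0.57.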

How the data were processed

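The authors trimmed the reads (Trimmomatic 0.39), aligned them to GRCm38 (STAR 2.6.1d), removed duplicates (Picard 2.18.16) and counted correct-strand reads for 1 isoform per gene. Multi-mapping reads kept 1 random position. The deposited TSS values behave as RPM, each read being worth a constant per library, although the study's methods name TPM. The deposited gene body values are TPM. The TSS test had been planned for TPM and was used unchanged.

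Values were compared on the log2(value + 0.5) scale by genotype alone, using limma 3.58.1 (lmFit and trended eBayes, R 4.3.3), for genes whose mean over the 6 libraries reached 0.5 for TSS and gene body alike. The fit followed the study's methods in excluding X and Y genes, except that used for *Eda2r*. The pausing index was tested as a log2 ratio without a pseudocount, for genes above 0 throughout. Of TSS values, 99.99% to 100% were whole multiples of 1 read within 0.1, as were 100% of gene body values of short genes. These reads served edgeR 4.0.16 and DESeq2 1.42.0, as alternatives only. Other alternatives changed the pseudocount, filter, trend, scaling, threshold, a replicate block and each library left out. The Y-linked term was chosen after seeing the data. Fits were tested on simulated data.

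The 10 genes, the related lists and the markers were chosen with earlier results of these data known. The text names all 10 genes, *Kmt5b*, and from each list every gene that passed a test, otherwise the one with the largest gene body difference. Other named genes were chosen after their values were seen. Gene identifiers matched GENCODE vM21 for 14528 of 14546 genes. Coordinates are 1-based and as the authors list them. Tables and plots were made with pandas 2.3.3, numpy 2.4.6 and matplotlib 3.10.9 under Python 3.11.15.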

Additional observations from a re-analysis of the deposited data

How the results depend on the processing

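The direction of *Bax*, *Pmaip1*, *Tnfrsf10b*, *Eda2r*, *Aen*, *Zmat3* and *Ei24* held in both regions under every alternative run. Of 151 values of the 9 genes in each region under the alternatives, 148 (TSS region) and 145 (gene body) kept their sign, and of 111 for the pausing index 105 did. Changes of the filter or the trend, the replicate block, and inclusion of X and Y leave a gene's fold change unaltered. Signs under these settings were therefore kept by construction. The signs that turned were those of *Fas* in the TSS region (log2 fold change -0.18 with a pseudocount of 0.1, -0.21 without *Kmt5b* sKO 1 and -0.12 without *Kmt5b* sKO 3, with a range of -0.21 to 0.84 over libraries left out) and in the gene body (-0.075 without Ctrl 3 and without *Kmt5b* sKO 3, range -0.075 to 0.50), and of *Bbc3* in the gene body (-0.053 with edgeR, -0.061 with DESeq2, -0.18 without Ctrl 2, range -0.18 to 0.40, and -0.25 with the Y-linked term). In the pausing index they were those of *Tnfrsf10b* (-0.042 without Ctrl 1 and -0.0011 without *Kmt5b* sKO 3, range -0.042 to 0.25), *Aen* (-0.14 without Ctrl 2, range -0.14 to 0.39, and -0.25 with the Y-linked term), *Zmat3* (0.12 without *Kmt5b* sKO 3, range -0.18 to 0.12) and *Ei24* (0.27 without *Kmt5b* sKO 3, range -0.37 to 0.27). Of the 9 genes, 0 to 1 were called in the TSS region with a library left out (*Eda2r* without Ctrl 3), and 1 with the Y-linked term (*Pmaip1*). In the gene body the 1 called became 0 at an adjusted p under 0.05, 2 with libraries centred on their median (*Tnfrsf10b*, *Eda2r*), 3 with edgeR (*Tnfrsf10b*, *Eda2r*, *Zmat3*), 4 with DESeq2 (those and *Pmaip1*), 4 with the Y-linked term (*Pmaip1*, *Tnfrsf10b*, *Eda2r*, *Ei24*) and 0 to 2 with a library left out (2, *Eda2r* and *Zmat3*, without Ctrl 3). Over all genes, the 207 called in the TSS region became 64 at an adjusted p under 0.05, 0 with no low-value filter (unadjusted p under 0.05 for 1448), 0 without a trend (1292), 577 with the Y-linked term and 1 to 408 with a library left out. The 372 called in the gene body became 1 at an adjusted p under 0.05, 748 with edgeR, 1295 with DESeq2, 1299 with the Y-linked term and 0 to 836 with a library left out. For the pausing index, 1 gene was called with a pseudocount of 0.5. Same-numbered libraries of the groups did not deviate together (correlations of deviations from -0.33 to -0.01), and the numbers were taken as names only. With 3 libraries a group these correlations cannot show whether libraries were prepared in pairs. With a replicate block 0 genes were called in either region (1141 and 1441 at an unadjusted p under 0.05), 0 of the 9 among them. *Eda2r* then had a limma adjusted p of 0.25 in the gene body. The cause of these changes was not tested. Depth limits *Fas* most, with at most 5 TSS reads and 34 to 114 gene body reads per library; the other genes had at least 24 TSS and 115 gene body reads.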
